A study of Solanum lycopersicum with 4 samples.

Results

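The genes described here are the most isolated annotated genes of the 12 tomato chromosomes, those whose midpoint had no other annotated gene midpoint within 50 kb. They were chosen from the annotation alone, among genes counted over a single interval longer than 300 bp and shorter than 20000 bp, and no expression value was used. The choice gave 938 genes, which is 2.95% of the 31763 genes of the same lengths on these chromosomes and 2.62% of the 35821 genes in the count table. The remaining 30825 genes of the same lengths serve below as the other genes.

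Poly(A) RNA was sequenced from leaf 4 of M82 tomato plants at an age of 1 month. The *ddm1* plants carry mutations in both tomato DDM1 genes (*Slddm1a* and *Slddm1b*), made by CRISPR, and the WT plants are unmutated M82 grown in the same kind of chamber. There were 2 libraries of *ddm1* and 2 of WT, which the study describes as independent biological replicates. How many plants each library holds is not given in the sources used here. The mutation is carried in every cell of the plant, and bulk leaf RNA cannot tell fewer cells of a type apart from less RNA per cell. Nuclear identifiers are not paired with names in the sources used here, so neither the DDM1 genes nor nuclear leaf markers were checked. Plastid genes had 5541 and 6191 counts in *ddm1*, against 11534 and 9919 counts in WT. The libraries held 6610591 and 6887057 counts in *ddm1*, against 5827940 and 5462981 counts in WT. Within each genotype the replicates differed by more than sampling noise (chi-square per degree of freedom 4.52 in *ddm1* and 3.89 in WT).

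DDM1 is a chromatin remodeler that lets DNA methyltransferases reach the DNA of heterochromatin, the compact chromatin rich in transposable elements. Plants without it lose DNA methylation there, and transposable elements that are normally silent can be transcribed. In tomato, heterochromatin fills the gene-poor middle of most chromosomes, whereas most genes lie in the gene-rich arms. Genes in that middle part stand far apart, between long stretches of repeats.

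Most isolated genes lay in the middle of their chromosome. In all, 80.6% of them were between 20% and 80% of the annotated span of their chromosome, compared with 23.4% of the other genes. On chromosome 2 they lay nearer one end, with a median position of 0.265 on a span from 0 to 1 (0.780 for its other genes). The nearest midpoint was 50.1 to 742 kb away, with a median of 82.6 kb (5.16 kb for the other genes). Within 500 kb an isolated gene had a median of 13 annotated genes, compared with 111 for the other genes, and 4 isolated genes had none. They were also shorter, with a median span of 1539 bp compared with 2478 bp. Their number per chromosome ranged from 40 on chromosome 2 to 112 on chromosome 1, and they were spread over both strands (480 and 458 genes). No table pairs any of the 938 identifiers with a gene name, so the genes are described by position in the M82 assembly. The function of these genes is not given here.

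Most isolated genes were silent or close to it in leaf. In total 383 of the 938 had no count in any library, and only 288 had counts in all 4. They held 101190 and 102890 counts in *ddm1*, against 87345 and 80970 counts in WT. A few genes carried most of this. Between 55 and 63 genes made up 50% of the isolated counts in a library.

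More isolated genes were detected in *ddm1* than in WT. At least 1 count was found for 480 and 496 genes in *ddm1*, against 326 and 321 genes in WT. Because the *ddm1* libraries were deeper, each library was reduced by calculation to the 5462981 counts of the smallest one. The share of isolated genes with a count was then 50.1% and 51.3% in *ddm1*, against 34.6% and 34.2% in WT. This is a gap of 16.3 percentage points between the means of 50.7% ± 0.878 in *ddm1* and 34.4% ± 0.267 in WT (SD, n = 2 each). The genotypes did not overlap, and a two-sided exact permutation test of 2 against 2 libraries cannot give a p-value under 0.333. The gap in the other genes was 6.82 points, with 77.0% and 77.2% in *ddm1*, against 71.1% and 69.5% in WT.

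The gap was wide at the next step of gene density as well. Genes with 1 or 2 neighbours within 50 kb were detected at 57.0% and 56.4% in *ddm1*, against 41.3% and 40.5% in WT, a gap of 15.8 points. It was 9.67 points for genes with 3 to 9 neighbours and 3.74 points for genes with 10 or more. The genes with 1 or 2 neighbours were thus close to the isolated genes in this measure. A gene detected in most libraries of both genotypes has little room to differ by it, so the classes start from unlike levels. With at least 10 counts required, without reduction of depth, 332 and 342 isolated genes were detected in *ddm1*, against 272 and 270 genes in WT.

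**Figure D1:**
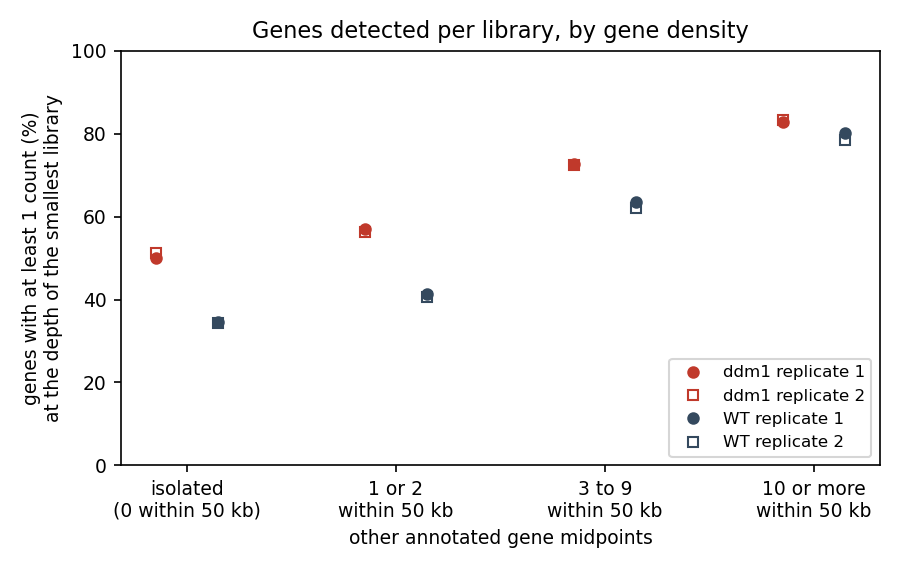
Share of genes with at least 1 count in each library (y axis, percent, each library reduced to the depth of the smallest), by the number of other gene midpoints within 50 kb (x axis). Points are single libraries, *ddm1* in red and WT in dark blue. The isolated genes stand at 50.1% and 51.3% in *ddm1* and at 34.6% and 34.2% in WT, and the gap narrows to the right.

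Presence and absence were uneven. Counts in *ddm1* together with 0 counts in both WT libraries were found for 210 isolated genes, which is 37.8% of the 555 isolated genes with any count. The reverse, counts in WT and 0 in both *ddm1* libraries, was found for 15 genes or 2.70%. Among the other genes the same shares were 11.97% and 2.72%. For genes with 1 or 2 neighbours within 50 kb they were 31.9% and 4.02%, nearer to those of the isolated genes. Most of the counts behind the shares of the isolated genes were small. Of the 210 genes, 112 had at most 3 counts in each *ddm1* library, and 87 had counts in only one of the *ddm1* libraries. All 15 genes of the reverse kind had at most 3 counts in each WT library. These numbers were not adjusted for the greater depth of the *ddm1* libraries.

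On every one of the 12 chromosomes both *ddm1* libraries had more isolated genes detected at equal depth than both WT libraries. The gap was widest on chromosome 2, with 51.6% and 55.8% of its 40 isolated genes in *ddm1*, against 27.5% and 27.5% in WT. It was narrowest on chromosome 3, with 47.9% and 47.8% of 61 genes in *ddm1*, against 40.9% and 39.3% in WT. On chromosome 9, where many isolated genes were detected in both genotypes, the shares were 58.7% and 56.8% in *ddm1*, against 44.4% and 44.6% in WT. The other genes were also detected more in both *ddm1* libraries on every chromosome. Their gap ran from 5.25 points on chromosome 2 to 8.80 points on chromosome 12. On chromosome 3 the gap of the isolated genes, 7.75 points, was close to the 6.39 points of the other genes there.

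Differential expression was tested with edgeR's quasi-likelihood test over the 21289 genes that passed a filter on low counts, and a gene was called where its p-value, adjusted by Benjamini-Hochberg, was under 0.05. Of the 938 isolated genes, 339 passed the filter (36.1%, compared with 65.2% of the other genes) and 599 were not tested. Among those tested, 107 were up-regulated in *ddm1* (31.6%), where the share over all genes tested was 25.3%. A total of 85 were down-regulated (25.1%), where the share over all genes tested was 23.7%. The remaining 147 were not called. Genes with 1 or 2 neighbours within 50 kb were close to this, with 348 of 1128 tested up-regulated (30.9%) and 250 down-regulated (22.2%). The median log2 fold change of the tested isolated genes was 0.02, and that of all genes tested was also 0.02. The medians were not alike under the other filters on low counts. With a change of more than 2-fold required as well, 86 isolated genes were up-regulated (25.4%) and 42 down-regulated (12.4%), where the shares over all genes tested were 16.5% and 13.1%. Of the 1128 tested genes with 1 or 2 neighbours, 265 were then up-regulated and 129 down-regulated.

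These shares depend on which genes could be tested. A gene without counts in WT passes the filter only through its counts in *ddm1*, and then it has to differ. All 56 tested genes with 0 counts in both WT libraries were up-regulated. Of the genes tested, none had 0 counts in both *ddm1* libraries. With no filter beyond a single count, 130 of 555 isolated genes were up-regulated (23.4%) and 84 down-regulated (15.1%), compared with 20.7% and 18.2% of all genes in that fit. The median log2 fold change was then 0.59 for the isolated genes and 0.09 for all genes. With a minimum of 10 counts in all libraries, which takes out the genes near 0 in WT by construction, 43 of 247 were up-regulated (17.4%) and 65 down-regulated (26.3%), compared with 21.1% and 23.2% of all genes. The medians were then -0.0500 for the isolated genes and 0.00116 for all genes. The balance of rises and falls thus turned round between these filters, for all genes as well as for the isolated genes.

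A comparison without a filter gave the following. Over the 555 isolated genes with any count, both *ddm1* values (CPM, counts scaled to library size with TMM factors) lay above both WT values in 232 genes (41.8%), where the share over all genes with a count was 38.8%. Both lay below in 148 genes (26.7%), where the share over all genes was 31.8%. In 175 genes the genotypes overlapped. For genes with 1 or 2 neighbours within 50 kb, the shares above and below were 42.6% and 26.2%.

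**Figure D2:**
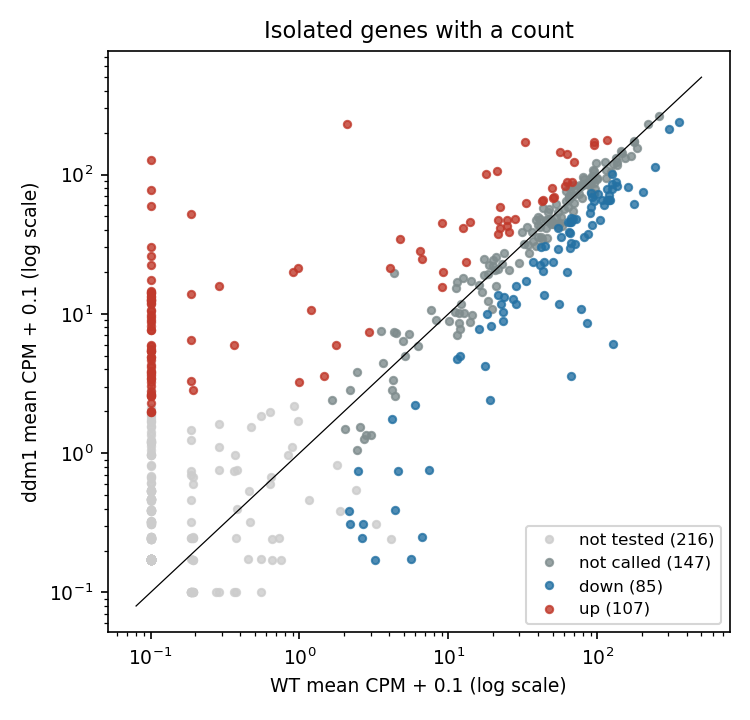
Mean CPM of *ddm1* (y axis) against mean CPM of WT (x axis), each with 0.1 added and on a log scale, for the 555 isolated genes with a count. Points are genes, coloured by call (107 up-regulated, 85 down-regulated, 147 not called, 216 not tested). The column of points at the left edge holds genes without counts in WT, and at high levels the points lie on both sides of the line of equal expression.

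The up-regulated isolated genes fell into those near 0 in WT and those expressed in both genotypes. Where neither library of a genotype exceeded 3 counts, the gene is said to be at the floor of that genotype, and its fold change is only a bound. Of the 107 up-regulated genes, 63 were at the floor in WT (58.9%). The share was 51.7% for genes with 1 or 2 neighbours within 50 kb, 25.2% with 3 to 9 neighbours and 12.3% with 10 or more. The remaining 44 were above the floor, with a median log2 fold change of 1.12, close to the 1.13 of the other up-regulated genes above the floor.

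The 56 up-regulated genes with 0 counts in both WT libraries lay on all 12 chromosomes. Their counts in single *ddm1* libraries ran from 11 to 1051, with a median of 48 in one library and 37.5 in the other. Only 7 of them had more than 100 counts in each *ddm1* library. Together they held 5477 and 4093 counts, or 5.41% and 3.98% of the isolated counts in *ddm1*. Set against 3 counts per WT library, their level was at least 3.47 to 235 times higher in *ddm1* (median bound 12.3), and 31 had a bound of 10 or more.

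Solyc02g021785.1, on chromosome 2 from 22769203 to 22787724 (plus strand, 18522 bp), had the largest fitted rise among the isolated genes. It had 1051 and 692 counts in *ddm1*, against 0 and 0 counts in WT, at least 235-fold higher (adjusted p = 0.000245, edgeR's quasi-likelihood test). Its nearest annotated gene lay 57.3 kb away. Solyc12g036800.1, on chromosome 12 from 50379018 to 50382368 (plus strand, 3351 bp), had the next largest. It had 668 and 386 counts in *ddm1*, against 0 and 0 counts in WT, at least 142-fold higher (adjusted p = 0.000447, edgeR). Both were without counts in WT and among the better expressed isolated genes in *ddm1*.

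The further rises and the larger falls given by position were chosen after their values were seen. A gene on chromosome 12 from 43549731 to 43553693, 153 kb from its nearest neighbour, had 438 and 372 counts in *ddm1*, against 0 and 0 counts in WT (at least 109-fold higher). Above the floor, the largest rise was that of a 7313 bp gene on chromosome 5 from 29088983 to 29096295. It had 1695 and 1437 counts in *ddm1*, against 10 and 12 counts in WT, corresponding to a log2 fold change of 6.83 ± 0.22 (SE) with an edgeR adjusted p of 7e-05. In *ddm1* it thus stood near the highest counts of any isolated gene, which were 1782 and 1802. A gene that was already expressed in WT, on chromosome 7 from 12966191 to 12975569, had 1106 and 1262 counts in *ddm1*, against 196 and 162 counts in WT, or a log2 fold change of 2.41 ± 0.12 (SE).

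The down-regulated isolated genes were mostly expressed in both genotypes. Only 8 of the 85 were at the floor in *ddm1* (9.41%, compared with 2.68% of the other down-regulated genes), with 10 to 43 counts in one WT library and 9 to 55 in the other. The other 77 had a median log2 fold change of -0.89, compared with -1.07 for the other down-regulated genes above the floor. Solyc03g013440.4, on chromosome 3 from 41222761 to 41226870 (4110 bp, nearest gene 121 kb away), had 1 and 0 counts in *ddm1*, against 43 and 19 counts in WT. It was at least 12.7-fold lower (adjusted p = 0.00224, edgeR). Solyc03g065200.4, on chromosome 3 from 37735275 to 37743393 (8119 bp, nearest gene 123 kb away), had 2 and 0 counts in *ddm1*, against 16 and 55 counts in WT. The bound was 15.03-fold lower or more (adjusted p = 0.0074, edgeR). Its WT replicates differed by more than 3 times, and without WT replicate 2 it did not pass the threshold (adjusted p = 0.0502, the highest over the alternatives, the lowest being 0.000449).

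Larger counts stood behind other falls. A gene on chromosome 1 from 24342284 to 24344311 had 16 and 68 counts in *ddm1*, against 677 and 735 counts in WT, corresponding to a log2 fold change of -4.39 ± 0.42 (SE) with an edgeR adjusted p of 0.000519. This was the largest fall above the floor. A gene on chromosome 11 from 51211038 to 51212132 had 20 and 28 counts in *ddm1*, against 398 and 336 counts in WT, corresponding to a log2 fold change of -4.24 ± 0.19 (SE) with an edgeR adjusted p of 9.7e-05. The gene with the most isolated counts in WT, on chromosome 1 from 38494035 to 38499180, also fell, with 1619 and 1643 counts in *ddm1*, against 1864 and 2021 counts in WT (log2 fold change -0.57, standard error 0.12).

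The balance of calls changed with the expression level. At a mean log2 CPM of 1 or lower, 11 of 19 isolated genes were up-regulated (57.9%) and 6 down-regulated (31.6%). For the other genes at that level the shares were 54.6% and 18.4%. All 11 rises were at the floor in WT, and 5 of the 6 falls were at the floor in *ddm1*. Among isolated genes with a mean log2 CPM between 1 and 3, 47 of 72 were up-regulated (65.3%) and 7 down-regulated (9.72%), compared with 34.0% and 18.6% of the other genes at that level. Of these 47 genes, 42 were at the floor in WT (89.4%, compared with 50.6% of the other up-regulated genes at that level). Between 3 and 5, 21 of 77 were up-regulated and 20 down-regulated, and the shares of 27.3% and 26.0% were close to the 25.8% and 23.4% of the other genes. Above 5, 28 of 171 were up-regulated (16.4%) and 52 down-regulated (30.4%), compared with 21.3% and 25.7% of the other genes. From the lowest class to the highest, 10, 38, 6 and 2 of the up-regulated isolated genes had 0 counts in both WT libraries. These had to differ once they passed the filter. The level is a mean over both genotypes, so a gene silent in WT cannot reach the higher classes without very high counts in *ddm1*.

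By gene length, 37 of the 366 isolated genes shorter than 1000 bp could be tested, with 18 up-regulated and 6 down-regulated (48.6% and 16.2%, compared with 29.1% and 22.0% of the other genes of that length). Of the 276 genes from 1000 to under 3000 bp, 98 were tested, with 41 up-regulated and 22 down-regulated (41.8% and 22.4%, compared with 29.4% and 23.7%). From 3000 to under 10000 bp, 146 of 224 were tested, with 41 up-regulated and 38 down-regulated (28.1% and 26.0%, compared with 23.2% and 24.4%). Of the 72 genes of 10000 bp or more, 58 were tested, with 7 up-regulated and 19 down-regulated (12.1% and 32.8%, compared with 18.5% and 22.2%). The up-regulated share of the other genes was thus also lower in the long classes than in the short ones. Of the up-regulated isolated genes, 16, 25, 17 and 5 were at the floor in WT, from the shortest class to the longest. Those with 0 counts in both WT libraries (15, 22, 16 and 3) had to differ once they passed the filter. Among the other up-regulated genes, 33.8%, 24.5%, 11.8% and 11.4% were at the floor in WT. Counts cover the whole span of a gene, introns included, so a longer gene collects more reads at the same level per base. The shortest class was detected at 24.0% and 25.9% in *ddm1*, against 8.69% and 9.84% in WT, at equal depth.

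Calls did not follow the distance to the nearest gene in one direction. With the nearest midpoint 50 to 75 kb away, 44 of 155 tested genes were up-regulated (28.4%) and 50 down-regulated (32.3%), where the shares over all genes tested were 25.3% and 23.7%. At 75 to 100 kb the numbers were 25 and 8 of 69 (36.2% and 11.6%), and at 100 to 150 kb 12 and 16 of 59 (20.3% and 27.1%). At 150 to 200 kb they were 17 and 4 of 29 (58.6% and 13.8%), and beyond 200 kb 9 and 7 of 27 (33.3% and 25.9%). Of the up-regulated genes in these classes, 24, 13, 8, 13 and 5 were at the floor in WT, with growing distance. Those with 0 counts in both WT libraries (21, 13, 7, 10 and 5) had to differ once they passed the filter. The gap in detection at equal depth was 14.0 percentage points in the nearest of these classes, then 16.7, 14.5, 24.3 and 22.8 points with growing distance. Just inside the 50 kb limit, 119 genes with a nearest midpoint at 50 to 55 kb gave 50 tested, 14 up-regulated and 15 down-regulated. Just outside it, 99 genes at 45 to 50 kb gave 39 tested, 13 up-regulated and 9 down-regulated.

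Neighbours of isolated genes were often untested themselves, whether the isolated gene was called or not. Of the 107 up-regulated isolated genes, the nearest annotated gene was not tested in 68, up-regulated in 14, down-regulated in 8 and not called in 17. Of the 85 down-regulated ones, it was not tested in 43, up-regulated in 12, down-regulated in 8 and not called in 22. For the 147 uncalled isolated genes, it was not tested in 88, up-regulated in 18, down-regulated in 16 and not called in 25. For the 599 untested ones, these numbers were 403, 68, 41 and 87. A tested neighbour was thus available for 39 up-regulated, 42 down-regulated, 59 uncalled and 196 untested isolated genes. In the whole fit, rises made up 25.3% and falls 23.7%. Whether neighbouring genes change together was not tested. Genes whose identifiers begin with TomatoPan made up 90 of the 938. Counts were found for 18 of these, and of 5 tested 3 were up-regulated and none down-regulated, too few to read against the 37.7% and 11.4% of the 114 other TomatoPan genes tested.

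The chromosomes differed in their balance of calls. More isolated genes were up-regulated than down-regulated on 8 chromosomes (2, 5, 6, 7, 8, 10, 11 and 12), fewer on 3 (3, 4 and 9), and chromosome 1 had 9 of each. For the other genes the numbers were 9 chromosomes and 3. On several chromosomes this balance was not stable. Chromosome 4, with 4 up-regulated and 7 down-regulated genes, had 4 and 3 with DESeq2, and also without WT replicate 1 and without WT replicate 2. Chromosome 1 had 10 up-regulated and 5 down-regulated genes with DESeq2, and chromosome 8, with 10 and 9, had 4 and 6 at an adjusted p under 0.01. On chromosome 12, with 9 and 8, there were 9 of each without WT replicate 2. The up-regulated share of tested isolated genes ranged from 19.0% on chromosome 4 to 46.4% on chromosome 10, and the down-regulated share from 10.7% on chromosome 10 to 45.8% on chromosome 3. Among the other genes both shares were narrow, 21.6% to 26.6% and 23.0% to 25.2%. The up-regulated shares include genes with 0 counts in both WT libraries, which had to differ once they passed the filter. These were 1 of 4 rises on chromosome 4, 9 of 13 on chromosome 10 and 7 of 8 on chromosome 2. With 18 to 42 isolated genes tested per chromosome, a wider range also follows from the small numbers, and no test between chromosomes was made.

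Chromosomes 5 and 10 had the most rises. On chromosome 5, 14 of 35 tested genes were up-regulated and 4 down-regulated, and 10 of the 14 were at the floor in WT. On chromosome 10, 13 of 28 were up-regulated and 3 down-regulated, and 9 of the 13 were at the floor in WT. On chromosome 6, 9 of 20 were up-regulated and 3 down-regulated, with 5 at the floor in WT. On chromosomes 5, 10 and 6, 8, 9 and 3 of the rises had 0 counts in both WT libraries and had to differ once tested. Chromosomes 3 and 9 had the most falls. On chromosome 3, 5 of 24 were up-regulated and 11 down-regulated, and more were down-regulated than up-regulated in every alternative run. On chromosome 9, 9 of 42 were up-regulated and 14 down-regulated, but this balance depended on the setting. It was 9 and 9 with DESeq2 and without WT replicate 1, 8 and 7 without WT replicate 2 and at an adjusted p under 0.01, and 8 and 4 with more than 2-fold required. With 10 counts required in every library, only chromosome 6 had more isolated genes up-regulated (4) than down-regulated (2), and chromosomes 3 and 9 had 8 and 12 down-regulated against 2 and 4 up-regulated.

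**Figure D3:**
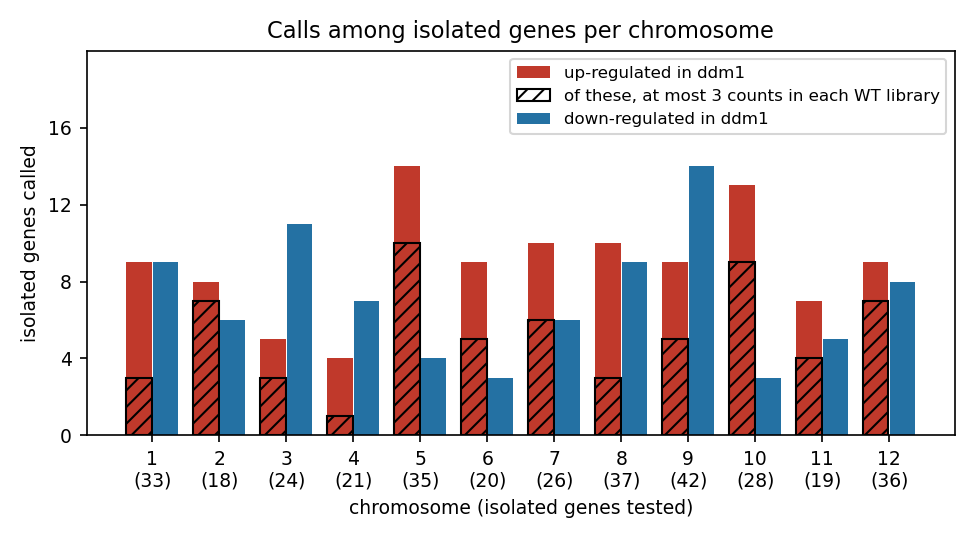
Number of isolated genes called by edgeR (y axis) on each chromosome (x axis, with the number tested in brackets), up-regulated in *ddm1* in red and down-regulated in *ddm1* in blue. The hatched part of a red bar is at the floor in WT. Chromosome 5 has 14 up-regulated genes, 10 of them hatched, and chromosome 9 has 14 down-regulated genes.

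The share of all chromosomal counts that fell in isolated genes was 1.533% and 1.496% in *ddm1*, against 1.502% and 1.485% in WT, and the genotypes overlapped. Per chromosome the shares moved in both directions. They were highest relative to WT on chromosome 6, with 1.18% and 1.09% of its counts in *ddm1*, against 0.906% and 0.916% in WT (log2 ratio 0.32). Chromosome 7 followed with 1.79% and 1.69% in *ddm1*, against 1.45% and 1.37% in WT (log2 ratio 0.30). Chromosome 3 was lowest relative to WT, with 0.872% and 0.867% in *ddm1*, against 1.06% and 1.11% in WT (log2 ratio -0.32). Chromosome 11 followed with 0.876% and 0.887% in *ddm1*, against 1.05% and 1.01% in WT (log2 ratio -0.22).

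In all, both *ddm1* values lay above both WT values on 6 chromosomes and below on the other 6. On chromosomes 4, 8 and 12 the log2 ratios were -0.04, -0.04 and 0.04, and on chromosome 8 the nearest values of the genotypes were both 2.01%. Single genes weighed on some of these shares. Without the gene with most counts, the log2 ratio of chromosome 3 was -0.18 in place of -0.32, and that of chromosome 1 was 0.01 in place of -0.08. That of chromosome 11 was -0.32 in place of -0.22, so that it became the lowest, and that of chromosome 6 was 0.45 in place of 0.32. The top gene of chromosome 3, from 20318369 to 20332554, had 720 and 831 counts in *ddm1*, against 1228 and 1455 counts in WT.

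**Figure D4:**
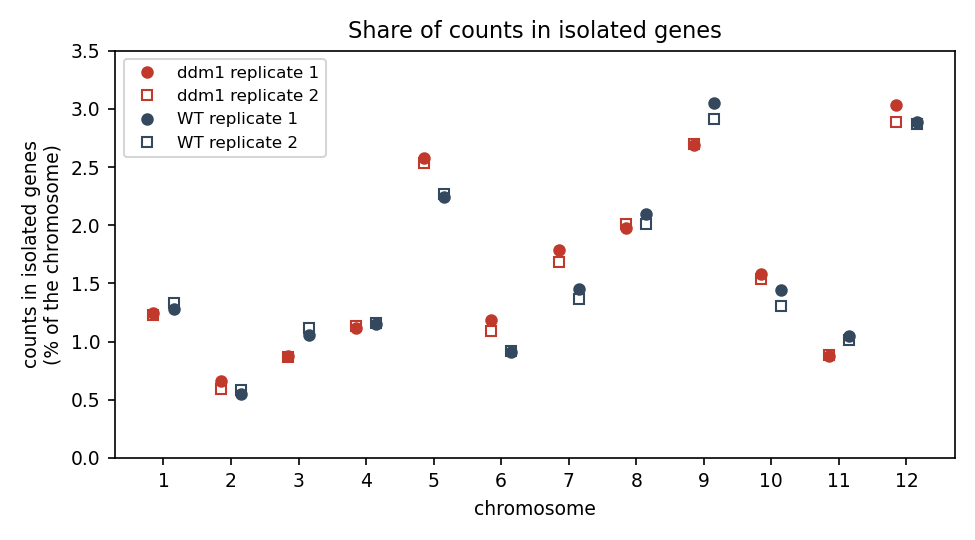
Counts in isolated genes as a percent of the counts of their chromosome (y axis) for chromosomes 1 to 12 (x axis). Points are single libraries, *ddm1* in red and WT in dark blue. Chromosomes 5, 6 and 7 lie higher in *ddm1*, and chromosomes 3, 9 and 11 lie lower.

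For each chromosome, the tested gene farthest from any neighbour was looked at singly. Of these 12 genes, 5 rose, 2 fell and 5 were not called. On chromosome 11, the gene from 49877518 to 49880270 had no other midpoint within 500 kb (nearest 626 kb). It had 29 and 29 counts in *ddm1*, against 0 and 0 counts in WT, at least 7.78-fold higher (adjusted p = 0.00169, edgeR). On chromosome 6, the gene from 11444342 to 11445388 (nearest 363 kb) had 17 and 18 counts in *ddm1*, against 0 and 0 counts in WT, at least 4.69-fold higher (adjusted p = 0.00307, edgeR). Both were thus seen only in *ddm1*, at low levels with close replicates.

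On chromosome 9, the gene from 19397138 to 19400970 (nearest 322 kb) had a CPM of 144 ± 11.5 in *ddm1* and 56.1 ± 4.45 in WT (SD, n = 2 each). The fitted log2 fold change was 1.36 ± 0.12 (SE), and edgeR gave an adjusted p of 0.00039. It was well expressed in both genotypes. On chromosome 8, the gene from 41621158 to 41622177 (nearest 495 kb) had 268 and 300 counts in *ddm1*, against 111 and 30 counts in WT (log2 fold change 1.71, standard error 0.46). Its WT replicates were far apart, and the log2 fold change was 1.09 to 2.86 over the alternatives. On chromosome 5, the gene from 50750889 to 50753134 (nearest 219 kb) had 27 and 16 counts in *ddm1*, against 7 and 3 counts in WT (log2 fold change 1.78, adjusted p = 0.0398 by edgeR). This call was lost with DESeq2, with every gene tested that had a count, and without *ddm1* replicate 1, WT replicate 1 or WT replicate 2, but not without *ddm1* replicate 2. The adjusted p ranged over the alternatives between 0.0352 and 0.251.

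The fall with most counts was on chromosome 3, where the gene from 40314701 to 40321334 (nearest 349 kb) had 113 and 123 counts in *ddm1*, against 178 and 187 counts in WT. The fitted log2 fold change was -0.94 ± 0.17 (SE), and edgeR gave an adjusted p of 0.00478. On chromosome 2, the gene from 12852794 to 12855085 (nearest 163 kb) had 14 and 15 counts in *ddm1*, against 36 and 29 counts in WT (log2 fold change -1.47, adjusted p = 0.0151 by edgeR). Here too the call was lost with DESeq2 and without any 1 library (adjusted p 0.00858 to 0.133 over the alternatives).

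The genes of chromosomes 1, 4, 7, 10 and 12 were not called. On chromosome 4, the gene from 32616971 to 32625447 had 290 and 290 counts in *ddm1*, against 203 and 168 counts in WT (adjusted p = 0.0857 by edgeR). On chromosome 12, the gene from 45855603 to 45869430 had 302 and 286 counts in *ddm1*, against 304 and 298 counts in WT (adjusted p = 0.0594 by edgeR). On chromosome 7, the gene from 25904812 to 25906398, with its nearest neighbour 697 kb away, had 5 and 15 counts in *ddm1*, against 11 and 16 counts in WT, and the genotypes overlapped. The genes of chromosomes 1 and 10 had 15 and 45, and 55 and 42 counts in *ddm1*, against 20 and 19, and 30 and 29 counts in WT. The most isolated gene of all, on chromosome 1 from 46631862 to 46632624 (742 kb), had 2 and 2 counts in *ddm1*, against 0 and 0 counts in WT, and was too low to be tested.

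**Figure D5:**
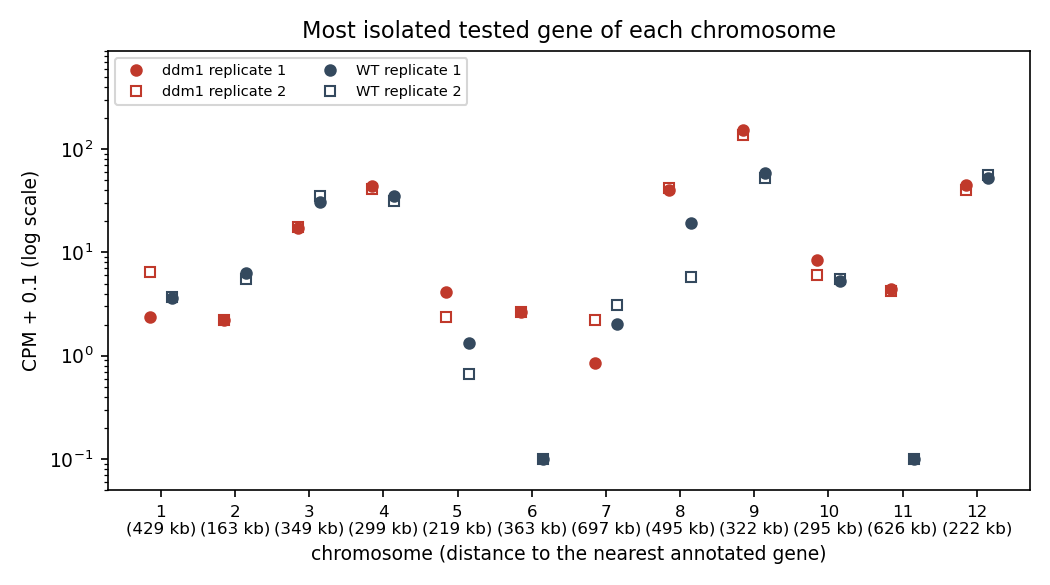
CPM in each library (y axis, 0.1 added, log scale) of the tested gene farthest from its neighbours on each chromosome (x axis, with the distance to the nearest gene). Points are single libraries, *ddm1* in red and WT in dark blue. The genes of chromosomes 6 and 11 have no count in WT, and the gene of chromosome 9 lies at 144 in *ddm1* and 56.1 in WT on average.

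Reads shared between near-identical copies were counted as the authors set it, with multi-mapping reads allowed and a mapping quality of at least 30. Whether reads from repeats within or next to these genes add to their counts was not tested. No batch is given in the labels, and any that runs with the genotype cannot be told apart from it.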

How the data were processed

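Reads were trimmed by the authors with Trimmomatic 0.38, aligned to the M82 genome (HISAT2), freed of duplicates and counted by featureCounts 2.0.0. SAMtools 1.9 is also named in the submitters' processing notes. What the authors deposited is the raw count of each gene over its whole span, introns included. Per the file headers, counts are of the reverse strand, a read needed a mapping quality of 30 or more, and multi-mapping and overlapping reads were allowed. Duplicate removal can lower high counts.

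From these counts, filterByExpr (minimum count 10), TMM and the quasi-likelihood test of edgeR 4.0.16 (R 4.3.3) were run over the whole table on genotype alone, and p-values were Benjamini-Hochberg adjusted over 21289 genes. The standard error (SE) of a log2 fold change was derived from that test, as its absolute value divided by the square root of the F statistic. DESeq2 1.42.0 was an alternative. The scripts were tested on simulated data. Detection at equal depth is the expected number of genes with a count after thinning to 5462981 counts. Fold bounds set the mean of a genotype against 3 counts per library and cover counting error only.

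The isolated genes, the classes and the alternatives were chosen with earlier results of these data known. Genes were named by rule: the 2 largest fitted rises and the 2 largest fitted falls among called genes (mean log2 CPM 1 or higher, genotypes not overlapping), by identifier, and the most isolated tested gene of each chromosome, by position. The reference table of names (assembly SLM_r2.1) matched 0 of 938 identifiers, and no sequences were used here. Alternatives covered the test, normalization, filters, thresholds, replicate block, the definition of isolation and each library left out.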

Additional observations from a re-analysis of the deposited data

How the results depend on the processing

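No gene was called in opposite directions under any of the other fits. DESeq2 called 107 isolated genes up (97 shared with edgeR) and 64 down (62 shared), and other normalizations 110 to 113 up and 76 to 83 down. The count of 107 up-regulated genes was 43 with 10 counts in every library, which removes genes near 0 by construction, 266 with 25 kb and 38 with 100 kb in place of 50 kb. The count of 85 down-regulated genes was 42 with a 2-fold minimum, 203 with 25 kb and 27 with 100 kb. The 63 genes at the floor in WT became 0 with 10 counts in every library, 134 with 25 kb and 26 with 100 kb, and the 8 at the floor in *ddm1* became 0, 13 and 3, or 5 with an adjusted p under 0.01. The 8 chromosomes with more rises became 1 with 10 counts in every library and 4 with 100 kb. The median log2 fold change (0.02) was 0.13 with DESeq2, 0.0742 with total counts, 0.59 over every gene with a count (0.09 for all genes), and -0.0500 with 10 counts in every library. The log2 ratio of the share of counts (0.02) was 0.0560 without the top gene of each chromosome, -0.00296 with 25 kb, -0.0319 with 100 kb and -0.00661 without length limits. The difference in genes detected at equal depth (152.8) was 80.7 with at least 5 counts, 164.5 without thinning, 339.8 with 25 kb, 67.0 with 100 kb, 140.3 with the gap between gene ends and 175.7 without length limits. The 232 genes higher and 148 lower in both *ddm1* libraries became 560 and 357 with 25 kb and 93 and 52 with 100 kb. Other distances change the number of genes by construction; for the remaining changes the cause was not tested.

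With each library left out, where the lone library is assumed to vary like the other genotype, 97 to 103 genes were up-regulated and 61 to 75 down-regulated, 61 to 67 were at the floor in WT and 4 to 12 at the floor in *ddm1*, and 9 to 10 chromosomes had more rises. The median log2 fold change was 0.0252 to 0.14, the log2 ratio of the share 0.002 to 0.037, and the difference in detection 147.0 to 158.6. The 4 genes at the floor in *ddm1* were left without WT replicate 2. The uncalled gene of chromosome 1 from 29975916 to 29980095 reversed to a log2 fold change of -0.64 without *ddm1* replicate 2, and was 0.29 with all libraries and up to 0.88 without *ddm1* replicate 1. The labels give no pairing of the samples, and the original library numbers differ between *ddm1* and WT. Deviations of same-numbered replicates had a correlation of 0.00357 over 21289 genes, which with 2 libraries per genotype cannot exclude pairing. The replicate block gave 104 rises and 83 falls. At 5462981 to 6887057 counts per library, genes near the floor give only bounds.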
